A study of Mus musculus with 24 samples.

Results

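Small intestinal organoids are epithelial buds grown from dissociated gut in a gel, without the muscle, vessels, nerves and leukocytes that surround the epithelium in the animal. The comparison described here set adult mouse organoids on day 3 of culture against adult mouse intestine that had not been cultured, 4 arrays each. These are 8 of the series' 24 arrays, taken by their labelled group, and no measured value was used to choose them. The organoid arrays carry the labels adult, organoids intestine and culture day 3. The tissue arrays carry the labels adult and tissue intestine, with no culture day. The organoids were kept in medium with EGF, Noggin and R-spondin. The other arrays were adult organoids on culture day 30, fetal organoids (stage E19) on days 3 and 30, and intestine of stage P0, with 4 arrays in each group. Total RNA was measured on 1-colour Affymetrix arrays, and values are log2 signals. Probe sets that name 1 gene covered 30712 genes, and all of these were tested.

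In the intestine, stem cells at the base of the crypts divide under Wnt signals, and their daughters stop dividing, mature and move up the villi as absorptive enterocytes or as mucus-secreting goblet cells, hormone-secreting enteroendocrine cells and tuft cells, while Paneth cells stay in the crypt and secrete antimicrobial peptides. Bmp signals from the surrounding stroma rise toward the villus and restrain the stem cell state. Noggin blocks Bmp, R-spondin prolongs Wnt signalling at the receptor, and EGF drives division, so the culture medium replaces niche signals that stroma and Paneth cells provide in the animal. Gut bacteria, leukocytes and diet, which act on the epithelium in the animal, are missing from such a culture.

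The labels give no gut region, strain or adult age, and nothing says whether replicates came from separate animals or cultures. Each SE and p-value rests on 1 spread per gene within the 6 groups of all 24 arrays, and it may be technical. That spread can exceed the scatter of the 8 arrays compared, as for Xist. Genes of the sex chromosomes set the groups apart. Xist, the RNA that silences 1 X chromosome in female cells, read 10.42, 10.72, 10.54 and 11.06 on the organoid arrays and 4.09, 3.77, 3.89 and 4.24 on the tissue arrays. Uty, a gene of the Y chromosome, read 6.55, 6.17, 6.25 and 5.43 on the tissue arrays and 3.69, 3.57, 3.58 and 3.57 on the organoid arrays. Groups overlapped in neither gene: Xist rose by 6.69 ± 1.01 (adjusted p = 1e-05), and the Y-linked genes Uty, Kdm5d and Eif2s3y were lower by differences of -2.50, -2.46 and -2.33. Sex and culture therefore cannot be told apart in this comparison.

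Single arrays also stood apart within both groups. Tissue array 1 held Fabp6, the bile acid binding protein of the ileum, at a signal of 9.62 where the other tissue arrays read 4.56, 4.80 and 4.55, and the organoids read 10.30, 6.40, 9.02 and 5.60. Onecut2, a transcription factor of the proximal gut, ran the other way, with 4.31, 8.01, 7.52 and 7.63 on the tissue arrays. Region of gut was not stated for any array. Several results that move with tissue array 1 are given with and without it, but not all were. Dcn, a stromal proteoglycan, read 8.88, 4.15, 4.08 and 4.73 on the organoid arrays, so array 1 lay far above the others and within the tissue range of 8.03, 8.24, 8.91 and 7.94. Organoid array 1 had a mean signal of 6.54 over the fibroblast list, against 5.38, 5.34 and 5.31 on organoid arrays 2 to 4. Median gene signals ran from 5.04 to 5.10 on organoid arrays and from 5.03 to 5.21 on tissue arrays. The number of arrays sets the precision.

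Culture went with a broad change. By limma with Benjamini-Hochberg adjustment over all genes, 6728 genes (21.9%) were higher in organoids and 4133 (13.5%) lower at an adjusted p under 0.05, the threshold meant below by called, rose and fell, which makes 10861 in all (35.4%). The groups overlapped in no array for 10777 genes (35.1%). At least 2-fold changes numbered 1426 upward (4.64%) and 1008 downward (3.28%). The median difference over all genes was 0.02. Of the called genes 61.9% were higher. That share was 49.4% when each array was centred on its epithelial genes, which moved all differences by -0.106, and it was 53.9% after a second quantile normalization. Below, a difference is organoids minus tissue on the log2 scale, ± its SE. Counts of called list members are to be read beside the 21.9% higher and 13.5% lower of all genes. A group mean under the median over negative controls (4.07 in organoids, 4.40 in tissue) gives only a bound on the level, so differences that rest on it are lower limits. Of the 1008 genes at least 2-fold lower, 772 (76.6%) kept an organoid mean above that median.

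**Figure D1:**
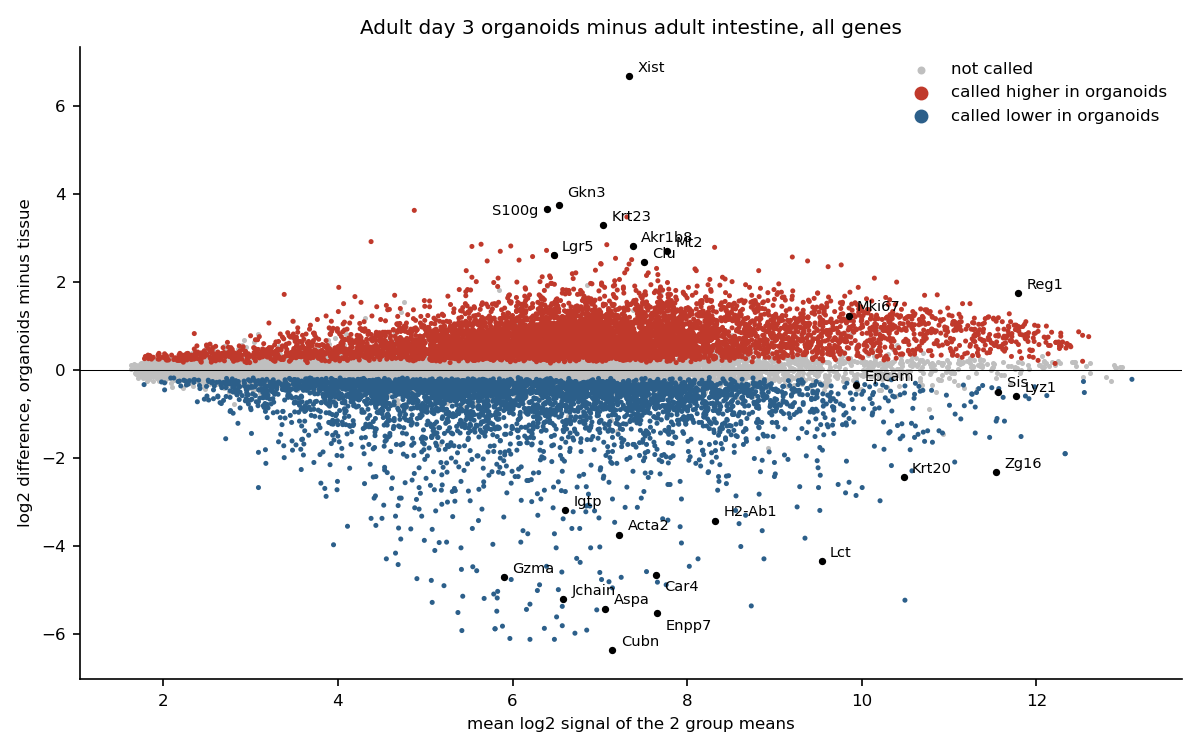
Log2 difference between adult day 3 organoids and adult intestine (vertical axis) against the mean log2 signal of both group means (horizontal axis) for 30712 genes, with genes called higher in red, called lower in blue and others in grey. The labelled genes Xist, Gkn3 and S100g lie at the top, Cubn and Enpp7 at the bottom, and Sis, Lyz1 and Epcam near 0.

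Both groups held intestinal epithelium at similar signal. Of 20 genes shared by epithelial cells of the gut, 7 were higher in organoids, 5 lower and 8 did not pass the test, with a median difference of 0.02, where all genes gave 21.9% higher, 13.5% lower and a median of 0.02. Epcam, an adhesion molecule of epithelial cells, read 10.25, 10.06, 10.15 and 9.97 on the tissue arrays and 9.81, 9.85, 9.70 and 9.72 on the organoid arrays, a small fall of 0.34 that was larger than the spread. The list also held clear changes. Vil1, which bundles the actin of microvilli, fell by 1.53 ± 0.11 (2.88-fold, adjusted p = 2.1e-10), and Krt18, a keratin of simple epithelia, rose by 1.70 ± 0.17 (3.24-fold, adjusted p = 2.4e-08). Hnf4a, a transcription factor of gut epithelium, differed by -0.04 ± 0.13 (adjusted p = 0.86). Without organoid array 2, organoid array 4 or tissue array 3, the count of lower genes in this list was 3.

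Markers of other cell types were lower in organoids. Of 136 genes in 11 lists of non-epithelial cells, 89 fell, 4 rose and the median difference was -0.70. In bulk RNA, fewer cells of a type and less RNA per cell cannot be told apart. Ptprc, the CD45 antigen of leukocytes, read 5.78, 6.08, 6.08 and 5.89 on the tissue arrays and 3.59, 3.00, 3.46 and 3.03 on the organoid arrays, so all organoid arrays lay below all tissue arrays and below the negative control median. Acta2, the actin of smooth muscle, read 9.42, 9.05, 9.61 and 8.31 on the tissue arrays and 5.56, 5.23, 5.31 and 5.32 on the organoid arrays and fell by 3.74 ± 0.19 (13.4-fold, adjusted p = 5.9e-13).

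Lists of leukocytes, muscle, vessels and connective tissue all moved this way. Among T and NK cell genes 14 of 15 fell, led by the granzymes Gzma (-4.70) and Gzmb (-3.96), and among myeloid and mast cell genes 12 of 19 fell. Jchain, the joining chain of secreted antibodies, fell by 5.20. Of the smooth muscle genes 11 of 13 fell, of the endothelial genes 12 of 13, including Kdr (-1.91), the main receptor for Vegf, and of the fibroblast genes 17 of 18. Enteric neuron and glia genes were lower for 5 of 12. Adamdec1, a protease of mucosal stroma and macrophages, read 9.33, 9.28, 9.52 and 9.48 on the tissue arrays and 6.68, 4.03, 4.03 and 3.83 on the organoid arrays. Its organoid signal was highest on array 1, as for the fibroblast list, and its fall of 4.76 became 5.44 when that array was left out. The fibroblast genes Dcn, Dpt and Ogn moved the same way, from -2.82, -3.22 and -2.86 with that array to -3.96, -4.28 and -3.52 without it. The 4 higher genes of these lists were Msln, Ctrb1, Epb42 and Cd14, chosen for naming after their values were seen. Of these, Ctrb1, a pancreatic protease precursor, rose by 2.85 ± 0.57 (7.23-fold, adjusted p = 0.00026), while 14 of 15 acinar genes did not pass the test. The calls of Msln, Epb42 and Cd14 were lost when single arrays were left out, with adjusted p of 0.13 for Msln without organoid array 1, 0.083 for Epb42 without tissue array 2 and 0.09 for Cd14 without organoid array 1.

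**Figure D2:**
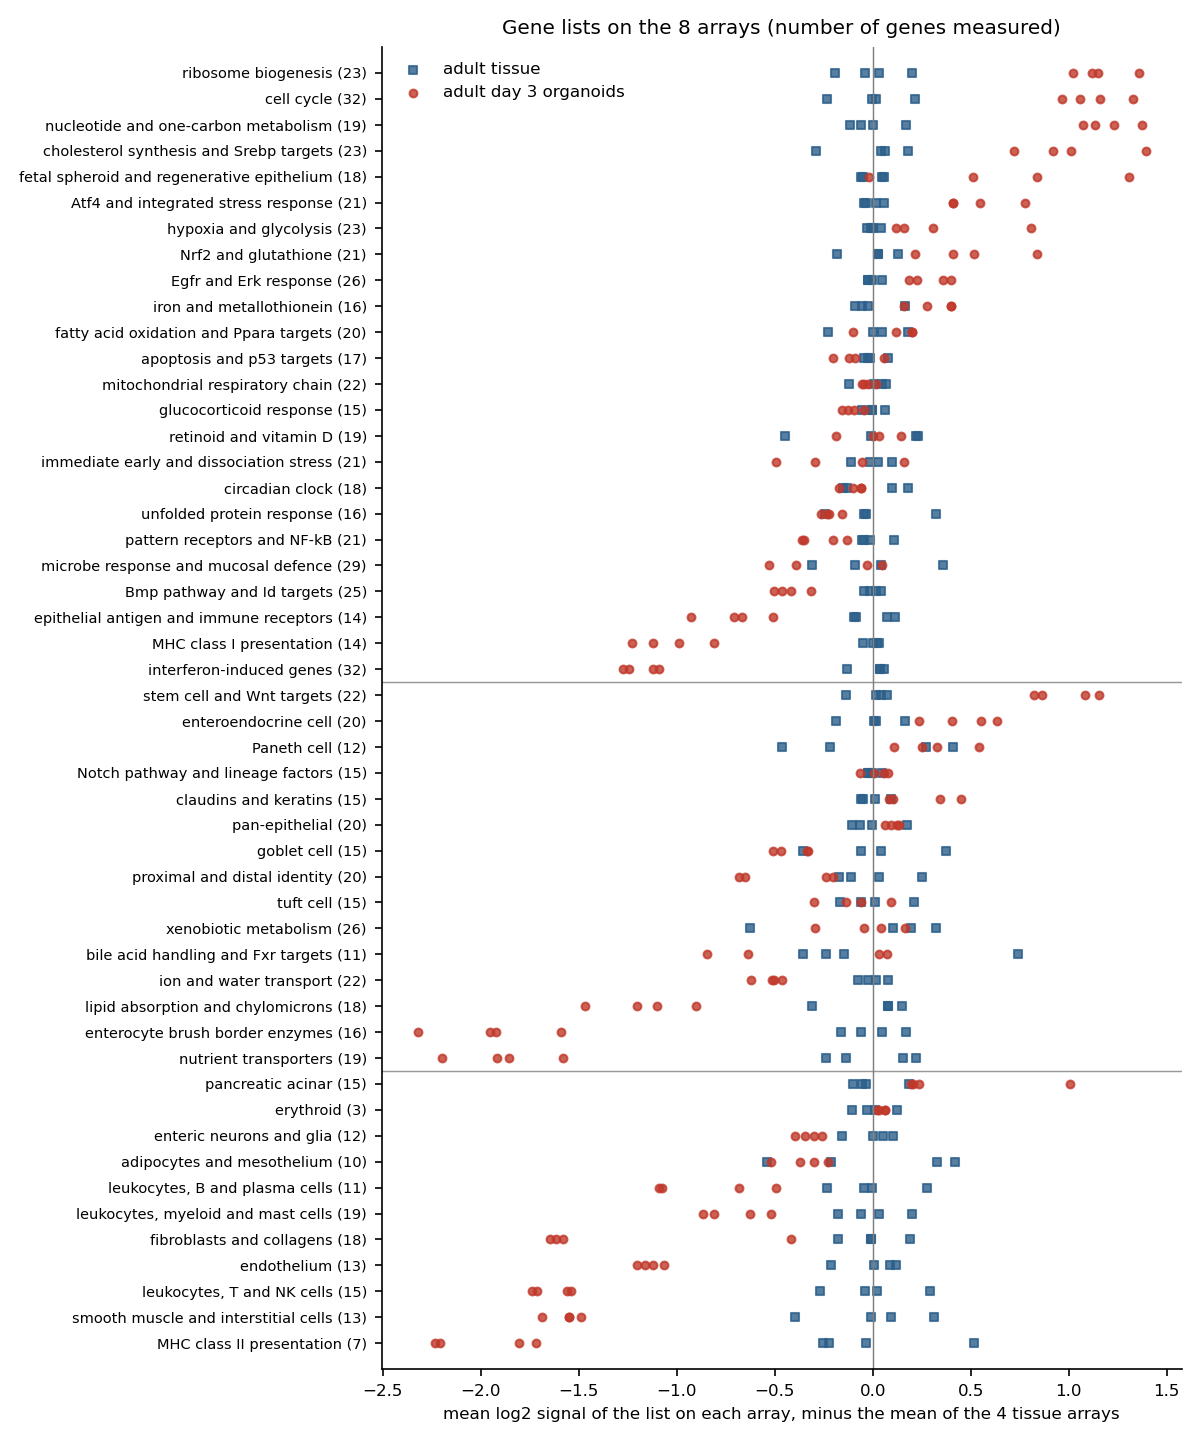
Mean log2 signal of each gene list on each array, as the difference from the mean of the 4 tissue arrays (horizontal axis), for tissue arrays (blue squares) and day 3 organoid arrays (red points). Grey lines part the lists of non-epithelial cells, of epithelial lineages and of pathways. Lists of smooth muscle, endothelium and leukocytes, of absorption and of interferon-induced genes lie to the left in organoids, and cell cycle, ribosome biogenesis and nucleotide synthesis to the right.

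Organoids carried more of the RNAs of dividing cells. Of 32 cell cycle genes 30 rose, with a median difference of 1.23, and 23 rose at least 2-fold. Mki67, an antigen of cycling cells, read 9.63, 9.30, 9.40 and 8.58 on the tissue arrays and 10.53, 10.71, 10.24 and 10.40 on the organoid arrays and rose by 1.24 ± 0.21 (2.36-fold, adjusted p = 4.9e-05), with no overlap between groups. The replication licensing genes were among the larger rises. Mcm5, a subunit of the helicase that opens DNA at replication origins, read 7.20, 6.91, 6.79 and 6.79 on the tissue arrays and 8.69, 8.89, 8.35 and 8.63 on the organoid arrays, and Tyms, which makes thymidylate, differed by 1.57. Mitotic genes moved too, with Ccnb2, a cyclin of mitosis, at 1.52 and Cdc20, which activates the anaphase complex, at 1.26. Against the others, Cdkn1a, the p21 inhibitor of cyclin-dependent kinases, fell by 0.62 ± 0.19 (1.53-fold, adjusted p = 0.011), a call lost without organoid array 4 (a difference of -0.49, adjusted p = 0.055). Tissue RNA includes layers that divide little, and their part in these differences was not tested. Smooth muscle and endothelial lists fell in the same organoids, as given above.

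Ribosome production and nucleotide synthesis rose with them. Of 23 ribosome biogenesis genes 21 rose, 14 of them at least 2-fold. Dkc1, which modifies ribosomal RNA and holds telomerase RNA, read 6.30, 6.28, 6.18 and 5.85 on the tissue arrays and 8.12, 8.41, 8.06 and 8.16 on the organoid arrays and rose by 2.03 ± 0.14 (4.09-fold, adjusted p = 1.3e-10). Nop58 and Fbl, core proteins of the particles that methylate ribosomal RNA, differed by 1.83 and 1.68. The list of nucleotide and one-carbon metabolism rose in all 19 measured genes. Ppat (1.93), which opens purine synthesis, and Umps (1.75), which closes pyrimidine ring synthesis, were the largest there beside Shmt2 (1.77), the mitochondrial serine hydroxymethyltransferase. In each of these lists no gene fell.

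The promoter of Mcm5 holds a match to the letters TTTGGCGC, a form of the site of E2F factors, which time replication genes. It is shown as an example of the list that rose together, with the 250 bases before the start on its strand (GRCm38.p6, RefSeq) and the match in capitals.
Mcm5, chr8:75109259-75109508, + strand: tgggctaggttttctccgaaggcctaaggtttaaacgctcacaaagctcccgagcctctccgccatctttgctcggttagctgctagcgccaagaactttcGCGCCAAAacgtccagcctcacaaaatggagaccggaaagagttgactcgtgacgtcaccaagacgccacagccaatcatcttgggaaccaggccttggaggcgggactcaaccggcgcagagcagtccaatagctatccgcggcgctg
Counting both strands, 2 of 26 cell cycle genes with a promoter sequence held these letters (7.69%, Mcm5 and Mcm6), against 131 of 27025 promoters of the same length (0.485%). A match is a description of letters, not of binding.

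Stem cell genes were higher in organoids. Of 22 genes of crypt stem cells and Wnt targets 18 rose and 1 fell, with a median difference of 0.93. Lgr5, the R-spondin receptor that marks crypt stem cells, read 5.39, 5.15, 5.27 and 4.84 on the tissue arrays and 6.91, 8.33, 7.23 and 8.63 on the organoid arrays. Its organoid arrays spread over more than 1 log2 unit, yet all lay above every tissue array, and it rose by 2.62 ± 0.40 (6.13-fold, adjusted p = 1e-05). Smoc2, another stem cell gene, read 7.39, 7.59, 7.58 and 7.18 on the tissue arrays and 8.60, 9.25, 8.67 and 9.54 on the organoid arrays and rose by 1.58 ± 0.29 (2.99-fold, adjusted p = 9.6e-05). Sox9, a crypt transcription factor, and Myc, a Wnt target that drives growth, differed by 1.94 and 1.81. Olfm4, abundant in crypt stem cells, rose by 0.94, a call lost without tissue arrays 1 and 4, an alternative chosen after the data were seen (0.82, adjusted p = 0.068).

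Feedback genes of the Wnt pathway were uneven. Axin2, which turns Wnt signalling down, rose by 0.71 ± 0.21, although its groups overlapped, and Znrf3, which removes Wnt receptors from the membrane, rose by 0.92. Nkd1, a further inhibitor, fell by 0.49 ± 0.10 (1.41-fold, adjusted p = 0.00024). Notum, an enzyme that inactivates Wnt ligands, and Sp5, a direct Wnt target, differed by -0.05 ± 0.09 (adjusted p = 0.73) and 0.07 ± 0.10 (adjusted p = 0.69).

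The digestive enzymes of the brush border, the microvillus face of enterocytes, went the other way. Of 16 measured enzymes 13 fell, all at least 2-fold, none rose, and the median difference was -1.80. Lct, which splits milk sugar, read 11.09, 11.96, 11.86 and 11.92 on the tissue arrays and 7.14, 6.79, 8.40 and 7.13 on the organoid arrays and fell by 4.34 ± 0.39 (20.3-fold, adjusted p = 4.8e-09). Peptidases fell with it. Naaladl1 (-3.82), Ace, which also makes angiotensin (-2.97), Dpp4 (-2.53), Enpep (-2.07) and Anpep (-1.51) span that range. Treh, which splits trehalose, fell by 1.86.

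Not every brush border enzyme was lower. Sis, which splits sucrose and isomaltose, read 11.89, 11.91, 12.05 and 11.39 on the tissue arrays and 11.45, 11.03, 11.48 and 11.31 on the organoid arrays, a difference of -0.49 ± 0.33 (adjusted p = 0.3) whose groups overlapped. Alpi, intestinal alkaline phosphatase, differed by -0.50 ± 0.30 (adjusted p = 0.23). Krt20, a keratin of mature villus cells outside this list, read 11.93, 11.72, 11.69 and 11.45 on the tissue arrays and 9.77, 8.50, 9.94 and 8.84 on the organoid arrays and fell by 2.44 ± 0.34 (5.41-fold, adjusted p = 3e-06). The organoid arrays of Krt20 all lay below the tissue arrays, while for Sis 2 organoid arrays lay below every tissue array and the other 2 above tissue array 4 alone.

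**Figure D3:**
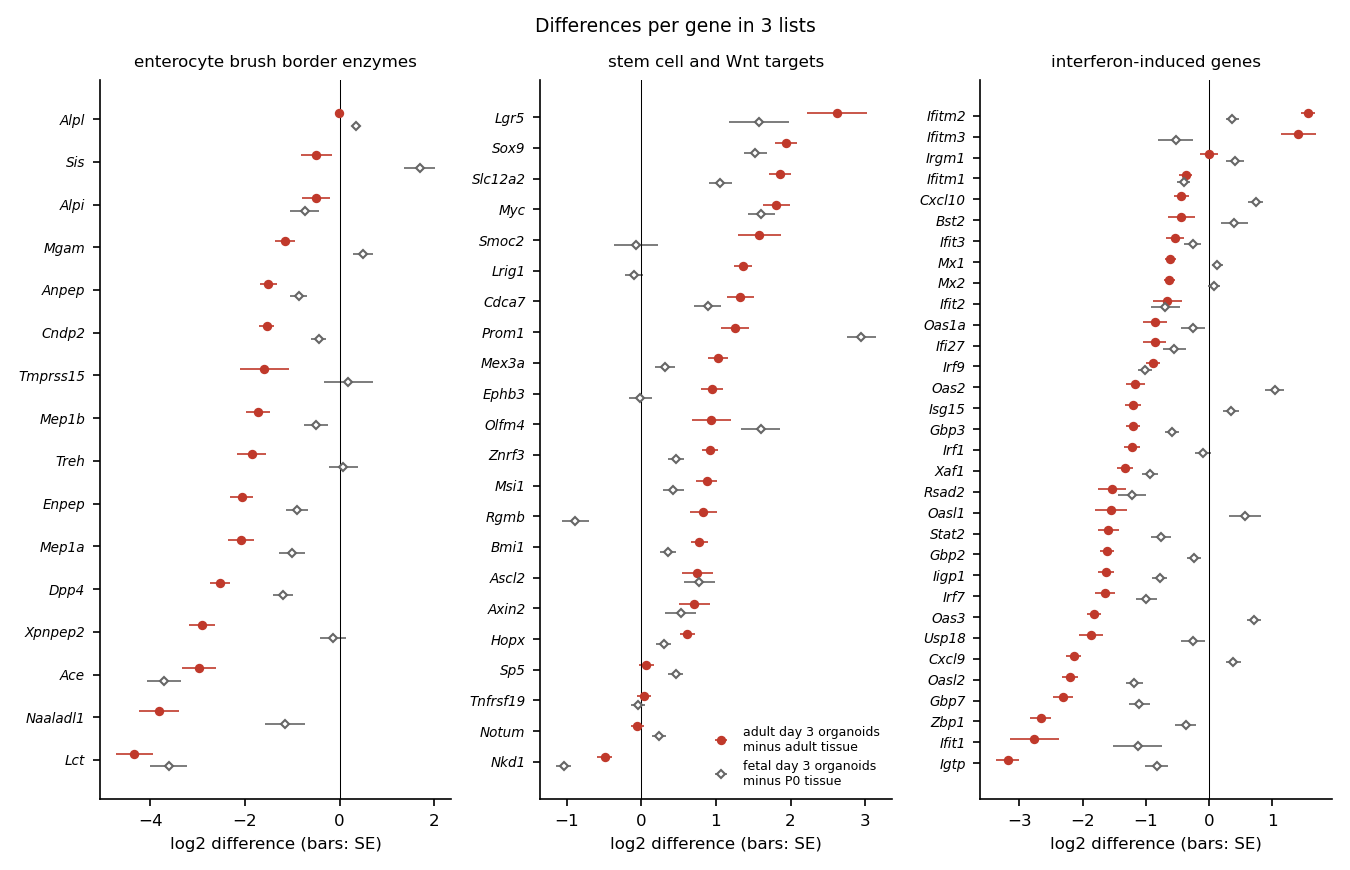
Log2 difference (horizontal axis, bars SE) of each gene in 3 lists, for adult day 3 organoids minus adult intestine (red points) and for fetal day 3 organoids minus P0 intestine (open grey diamonds). In the adult comparison Lct is lowest among brush border enzymes, Lgr5 highest among stem cell genes, and Ifitm2 and Ifitm3 lie to the right of the other interferon-induced genes.

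Enterocytes switch at weaning from a milk diet to solid food, and genes of both programmes were measured. Of the suckling genes, Lct fell as given, Prdm1, the factor that holds the suckling programme, fell by 1.22, and Fcgrt, which carries antibodies from milk, by 1.18. Of the genes known to rise at weaning, Sis did not pass the test, Treh fell, and Arg2, a mitochondrial arginase, differed by -0.61 ± 0.34 (adjusted p = 0.18), or by -0.97 (adjusted p = 0.017) without tissue array 1. Nox4, an NADPH oxidase that is not placed in either programme here, differed by -0.15 ± 0.15 (adjusted p = 0.53). Both its group means lay under the negative control median. Ass1, of arginine synthesis and likewise not placed, was not analysed here. So members of both programmes were lower, and none of those named here was called higher. Leukocyte and endothelial lists fell in the same arrays, and their part in the falls of Prdm1 and Fcgrt was not tested.

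Nutrient uptake genes fell nearly throughout. Of 19 transporters 17 fell and none rose, with a median difference of -1.83. Slc15a1, the carrier of di- and tripeptides, read 11.11, 11.29, 11.39 and 10.66 on the tissue arrays and 7.96, 7.22, 8.66 and 7.86 on the organoid arrays and fell by 3.19 ± 0.29 (9.11-fold, adjusted p = 6.9e-09). Slc34a2, which takes up phosphate, and Slc23a1, which takes up vitamin C, fell by 3.65 and 3.12. The sodium-glucose carrier Slc5a1 fell by 1.62 and the glucose carrier Slc2a2 by 1.56, while the fructose carrier Slc2a5 differed by -0.47 ± 0.26 (adjusted p = 0.19) and by -0.73 (adjusted p = 0.023) without tissue array 1.

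Fat uptake and export followed. Of 18 genes 15 fell and none rose. Apob, the protein scaffold of chylomicrons, read 11.71, 11.65, 11.70 and 11.47 on the tissue arrays and 10.35, 9.49, 10.37 and 9.77 on the organoid arrays. The fatty acid carrier Slc27a4, the cholesterol carrier Npc1l1 and the scavenger receptor Cd36 fell by 2.82, 2.29 and 1.85. In contrast Fabp1, a fatty acid binding protein of enterocytes, differed by 0.10 ± 0.19 (adjusted p = 0.75). Of 11 genes of bile acid handling 3 fell (27.3%, against 13.5% of all genes) and none rose. Without tissue array 1, 4 of these fell and 1 rose, and their median moved from -0.34 to -0.05. Both subunits of the bile acid exporter, Slc51a and Slc51b, fell by 2.12 and 2.86. Fabp6, uneven across arrays as described, differed by 1.94 ± 1.11 (adjusted p = 0.2). Without tissue array 1 that was 3.19 (adjusted p = 0.015), and without organoid array 1 it was 1.12 and without organoid array 4 2.69.

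Ion and water transport changed in both directions. Of 22 genes 10 fell and 4 rose. Car4, a carbonic anhydrase on the cell surface, read 10.26, 10.31, 9.97 and 9.32 on the tissue arrays and 5.67, 5.07, 5.36 and 5.16 on the organoid arrays and fell by 4.65 ± 0.17 (25.1-fold, adjusted p = 2.4e-15). The sodium-proton exchangers Slc9a3 and Slc9a2 fell by 2.22 and 1.88. Higher were Slc12a2, the chloride loading carrier of crypt cells (1.86), the potassium channel Kcnq1 (1.04) and Car8 (1.80). Cftr, the chloride channel, differed by 0.13 ± 0.20 (adjusted p = 0.7). The tight junction gene Cldn2, known from crypts, rose by 1.24, and Cldn15, known from villi, fell by 0.55.

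Antibody genes made up most of the largest falls. Of the 50 largest, 39 were segments of antibody genes, which plasma cells express, with differences down to -6.12, and 1 was a T cell receptor segment. Segments resemble each other, so probes may read several, and none is given singly. The other 10 held genes of uptake and digestion beside the leukocyte and stromal genes Jchain, Gzma and Adamdec1 given above. Cubn, the receptor that takes up vitamin B12 with its carrier, read 10.07, 10.55, 10.40 and 10.29 on the tissue arrays and 4.17, 3.67, 4.12 and 3.86 on the organoid arrays, and its fall of 6.37 ± 0.28 (adjusted p = 6.3e-14) is a lower limit because organoids lay near the negative controls. Enpp7, which digests sphingomyelin, Aspa, which splits N-acetylaspartate, and Slc5a12, a lactate carrier, fell by 5.53, 5.42 and 5.32. Susd2 fell by 4.58. The smallest of the 50 falls was a difference of -4.53. Slc28a2, which takes up nucleosides, and Gsdmc2, a gasdermin, lay outside these 50 and fell by 4.29 and 4.04.

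Other genes fell with an organoid mean still over the 95th percentile of the negative controls (7.63). That held for 151 of the 1008 genes at least 2-fold lower (15%). Ada, which breaks down adenosine, read 10.53, 11.07, 10.78 and 10.87 on the tissue arrays and 8.38, 7.29, 8.34 and 6.81 on the organoid arrays. Mxd1, an antagonist of Myc in cells that leave the cycle, fell by 2.65, Asah2, a ceramidase of the brush border, by 2.55, and Xdh, xanthine dehydrogenase, by 2.39. In all of these the tissue arrays lay above the organoid arrays.

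**Figure D4:**
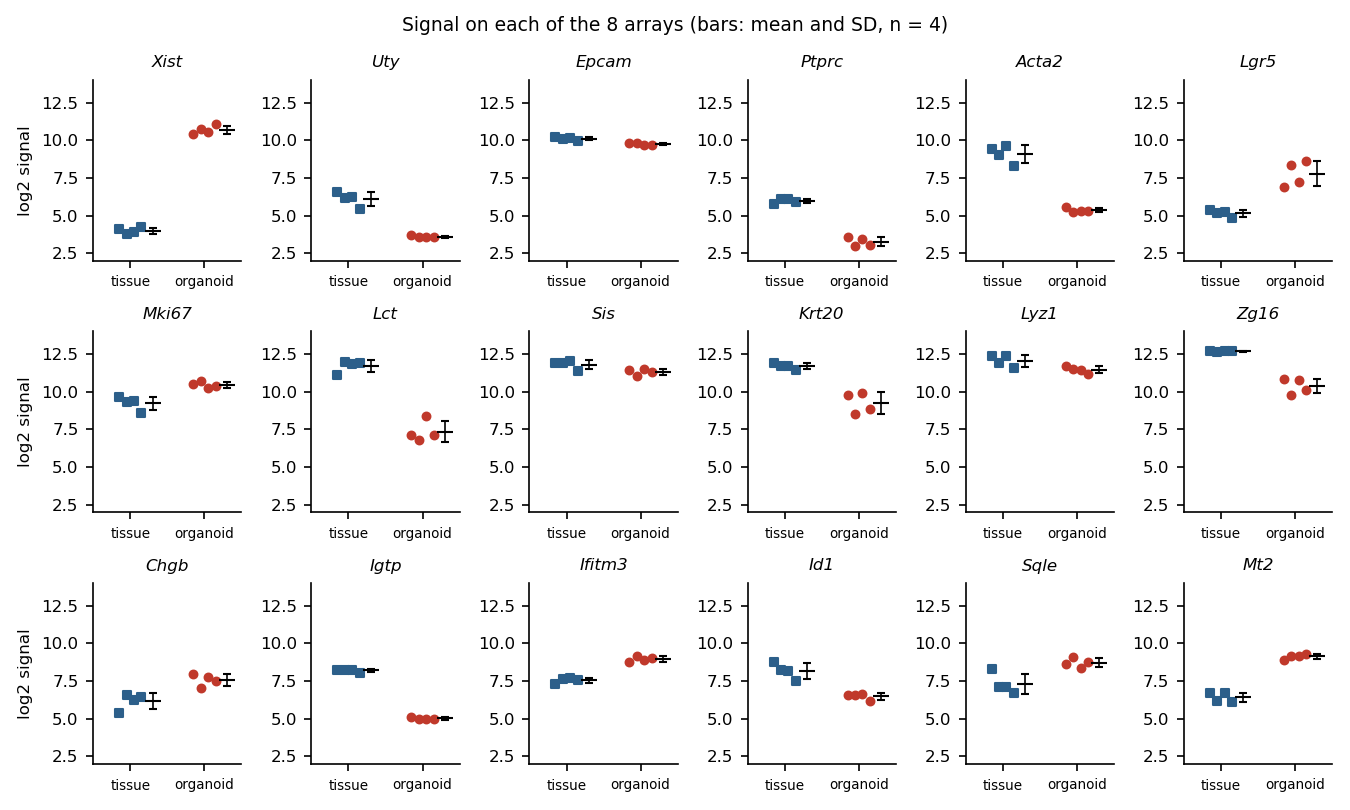
Log2 signal on each array (vertical axis) of 18 genes, for 4 tissue arrays (blue squares) and 4 day 3 organoid arrays (red points), with bars for mean and SD (n = 4). Groups are apart for Xist, Uty, Ptprc, Acta2, Lgr5, Mki67, Lct, Krt20, Zg16, Chgb, Igtp, Ifitm3, Id1, Sqle and Mt2, and near each other for Epcam, Sis and Lyz1.

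Secretory lineages did not move together. Some goblet cell genes fell, most Paneth cell genes did not pass the test, and several enteroendocrine genes rose.

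Of 15 goblet cell genes 6 fell (40%) and 1 rose (6.67%), and without tissue array 1, 5 fell and 2 rose. Zg16, a lectin of the mucus layer, read 12.71, 12.66, 12.73 and 12.69 on the tissue arrays and 10.83, 9.81, 10.75 and 10.13 on the organoid arrays and fell by 2.32 ± 0.35 (4.98-fold, adjusted p = 1.2e-05). Muc2, the gel-forming mucin, read 12.00, 11.40, 11.38 and 10.86 on the tissue arrays and 10.24, 9.44, 10.16 and 10.15 on the organoid arrays and fell by 1.41, while Clca1, a mucus protease, fell by 2.17. The factors that set the goblet fate differed by 0.27 ± 0.29 (adjusted p = 0.56) for Atoh1 and 0.20 ± 0.14 (adjusted p = 0.33) for Spdef, and the peptide Tff3 by -0.07 ± 0.20 (adjusted p = 0.84). The lone rise was Spink4, a secreted protease inhibitor, at 0.94 (adjusted p = 0.041), a call lost without any of the organoid arrays and without tissue arrays 2, 3 or 4, with 0.67 (adjusted p = 0.18) without tissue array 4.

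Of 12 Paneth cell genes 3 rose (25%, near the 21.9% of all genes) and none fell, with a median difference of 0.22. Lysozyme Lyz1 read 12.36, 11.89, 12.39 and 11.60 on the tissue arrays and 11.74, 11.49, 11.47 and 11.20 on the organoid arrays, a difference of -0.59 ± 0.32 (adjusted p = 0.18) between overlapping groups. Mmp7, the protease that activates defensins, differed by 0.81 ± 0.36 (adjusted p = 0.093) and the lectin Itln1 by 0.26 ± 0.36 (adjusted p = 0.65). Defensin Defa22, whose probes may also read near-identical family members, differed by -0.22 ± 0.45 (adjusted p = 0.78). The genes that rose were Sox9, also a stem cell gene, Nupr1 and Wnt3, and without tissue array 4 only Sox9 of these passed the test. The call of Wnt3 was also lost without organoid arrays 1 or 2 and tissue arrays 2 or 3, with adjusted p between 0.089 and 0.093.

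Of 20 enteroendocrine genes 8 rose and 2 fell, with a median difference of 0.58. Chgb, a protein of hormone granules, read 5.38, 6.60, 6.26 and 6.42 on the tissue arrays and 7.94, 7.06, 7.76 and 7.47 on the organoid arrays and rose by 1.39 ± 0.29 (2.63-fold, adjusted p = 0.00051). Tac1, the substance P precursor of enterochromaffin cells, read 5.01, 4.95, 5.15 and 5.11 on the tissue arrays and 7.50, 6.81, 7.18 and 6.73 on the organoid arrays and rose by 2.0 ± 0.22 (4-fold, adjusted p = 1e-07). Neurog3, which starts the endocrine fate, rose by 1.06. Chga, the other main granule protein, rose by 0.95 (adjusted p = 0.02), and this call was lost without tissue array 1 (0.78, adjusted p = 0.076) and without organoid arrays 1 or 3 (0.79, adjusted p = 0.075, and 0.73, adjusted p = 0.089). Without tissue array 1, 5 genes rose. Sct, the secretin precursor, fell by 0.83, and Nts was the other gene that fell. The lowest difference in the list was -1.74. Among 15 tuft cell genes 2 fell (13.3%, near the 13.5% of all genes), and the taste channel Trpm5 and kinase Dclk1 differed by -0.28 ± 0.25 (adjusted p = 0.45) and -0.12 ± 0.44 (adjusted p = 0.89).

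The organoids grew with the Bmp antagonist Noggin, and genes of the Bmp pathway, a list of ligands, receptors, antagonists and targets, changed in part. Of 25 genes 11 fell (44%) and 3 rose (12%), with a median difference of -0.25, where 13.5% and 21.9% of all genes did. Id1, a direct Bmp target, read 8.76, 8.24, 8.15 and 7.51 on the tissue arrays and 6.59, 6.54, 6.61 and 6.17 on the organoid arrays and fell by 1.69 ± 0.20 (3.22-fold, adjusted p = 2.8e-07). Id3 fell by 1.67, and the inhibitory Smad genes Smad6 and Smad7, which Bmp and related ligands switch on, by 0.61 and 1.20. Among ligands, Bmp4 and Bmp5, which stromal cells make, fell by 1.23 and 2.61, and Bmp7 rose by 1.08. The stromal antagonist Grem1 fell by 1.04. Stromal lists fell in the same arrays, and their part in the fall of the Id genes was not tested. The receptor genes Bmpr1a and Bmpr2 differed by 0.01 ± 0.15 (adjusted p = 0.98) and 0.08 ± 0.10 (adjusted p = 0.65).

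Genes tied to the Egf receptor moved both ways. Of 26 genes 9 rose (34.6%, against 21.9% of all genes) and 3 fell (11.5%, against 13.5%). Among feedback targets of Erk signalling, Etv5, Etv4, Dusp4 and Phlda1 rose by 1.11, 0.86, 1.20 and 1.13, yet Dusp6, a phosphatase of the same loop, read 9.43, 9.20, 9.23 and 9.08 on the tissue arrays and 8.36, 7.66, 8.73 and 7.77 on the organoid arrays and fell by 1.10 ± 0.22 (2.15-fold, adjusted p = 0.00027). Receptors were also uneven, with falls of 0.73 for Erbb2 and 0.89 for Erbb3 and a difference of 0.31 ± 0.13 (adjusted p = 0.067) for Egfr. That of Egfr passed the test without tissue array 1 (0.44, adjusted p = 0.0072) or organoid array 4 (0.38, adjusted p = 0.034). Lrig1, which dampens these receptors, rose by 1.36, and the ligand Btc by 1.37.

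In the Notch pathway 4 of 15 genes rose (26.7%) and 3 fell (20%), shares near the 21.9% and 13.5% of all genes. Hes1, the main Notch target of crypts, rose by 0.90. Klf4, a factor of goblet cells and mature villus cells, read 10.44, 9.94, 9.98 and 9.85 on the tissue arrays and 8.17, 7.98, 7.93 and 7.71 on the organoid arrays and fell by 2.10 ± 0.24 (4.3-fold, adjusted p = 2.6e-07). The ligands Dll1 and Dll4 differed by 0.09 ± 0.11 (adjusted p = 0.58) and, a fall, -0.68. Of 21 immediate early genes 5 fell (23.8%) and 1 rose (4.76%). Fos fell by 1.02 and Ier2 rose by 1.09, while Dusp1 differed by -0.32 ± 0.37 (adjusted p = 0.59).

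Interferon-induced genes were lower in organoids as a group. Of 32 genes 28 fell, 19 of them at least 2-fold, and 2 rose, with a median difference of -1.21. In organoids 11 of the 32 had a mean under the negative control median, and in tissue 3 did. Igtp, a GTPase that defends cells against intracellular parasites, read 8.26, 8.24, 8.24 and 8.05 on the tissue arrays and 5.13, 4.95, 4.97 and 5.0 on the organoid arrays and fell by 3.18 ± 0.18 (9.09-fold, adjusted p = 2.5e-12). Ifit1, which binds viral RNA, read 6.24, 6.74, 6.90 and 6.89 on the tissue arrays and 4.33, 3.37, 4.28 and 3.73 on the organoid arrays. Its fall of 2.76 is a lower limit because its organoid mean lay under that median. The transcription factors Irf7, Stat2, Irf1 and Irf9 fell by 1.64, 1.59, 1.22 and 0.89.

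The exceptions were a pair of membrane proteins that keep viruses from fusing with cells. Ifitm2 read 8.83, 8.81, 8.94 and 8.86 on the tissue arrays and 10.16, 10.70, 10.18 and 10.68 on the organoid arrays and rose by 1.57 ± 0.11 (2.97-fold, adjusted p = 1.5e-10). Ifitm3 read 7.32, 7.61, 7.70 and 7.57 on the tissue arrays and 8.76, 9.16, 8.90 and 9.04 on the organoid arrays and rose by 1.41 ± 0.28 (2.66-fold, adjusted p = 0.00029). Their groups overlapped in no array. Ifitm1, of the same family, fell by 0.37, and related sequences within the family make each value open to signal from the others.

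Leukocytes carry many of these RNAs, and T cell, myeloid and class II lists fell in the same arrays. The mean of the T and NK cell list was 4.25 to 4.45 on organoid arrays and 5.72 to 6.28 on tissue arrays, with 6 of its 15 genes under the negative control median in organoids and 2 in tissue. Their part in the interferon result was not tested.

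Most promoters of this list hold a motif, among them promoters of genes that moved in opposite directions. The letters GAAA, any 2 bases and GAAA again, a core of the element that interferon-regulated factors bind, occur on either strand in 15 of 25 list members with a promoter sequence (60%) and in 936 of 27025 promoters of that length (3.46%). The 250 bases before each start are given on the gene's strand (GRCm38.p6, RefSeq), with matches in capitals.
Igtp (lower), chr11:58199306-58199555, + strand: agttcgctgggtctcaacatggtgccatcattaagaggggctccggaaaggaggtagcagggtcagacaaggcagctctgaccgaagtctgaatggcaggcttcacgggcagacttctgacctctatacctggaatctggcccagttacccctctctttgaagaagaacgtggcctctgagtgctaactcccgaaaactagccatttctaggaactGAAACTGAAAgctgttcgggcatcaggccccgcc
Ifit1 (lower), chr19:34640639-34640888, + strand: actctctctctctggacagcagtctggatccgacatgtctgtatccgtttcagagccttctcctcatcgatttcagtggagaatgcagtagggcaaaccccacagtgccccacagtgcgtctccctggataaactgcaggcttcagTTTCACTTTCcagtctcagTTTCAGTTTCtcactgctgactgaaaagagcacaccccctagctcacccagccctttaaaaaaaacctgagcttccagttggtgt
Ifitm2 (higher), chr7:140955962-140956211, - strand: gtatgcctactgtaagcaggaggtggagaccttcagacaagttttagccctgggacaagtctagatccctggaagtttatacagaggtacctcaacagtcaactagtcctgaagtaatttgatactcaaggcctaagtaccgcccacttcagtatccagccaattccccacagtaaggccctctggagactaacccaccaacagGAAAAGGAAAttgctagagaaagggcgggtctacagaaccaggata
The letters say nothing of which factor was bound in these samples.

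Antigen presentation fell too. Of 14 genes of the class I pathway 13 fell and none rose. B2m, the light chain shared by class I molecules, read 11.99, 12.14, 12.16 and 12.10 on the tissue arrays and 11.14, 10.81, 11.23 and 10.81 on the organoid arrays and fell by 1.10. The peptide transporter Tap1, its partner Tapbp and the immunoproteasome subunit Psmb8 fell by 1.44, 1.51 and 1.23. All 7 class II genes fell, led by H2-Ab1 (-3.42) and H2-Eb1 (-3.12). Class II molecules are carried by professional antigen-presenting cells and can be induced in epithelium, and these sources cannot be told apart here.

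A list of epithelial antigen and immune genes, some of which act on intraepithelial lymphocytes, was lower in part. Of 14 genes 7 fell (50%, against 13.5% of all genes) and none rose. The list also held Epcam, whose small fall is given above. Btnl6, a butyrophilin-like protein of gut epithelium, read 9.88, 9.80, 9.74 and 9.53 on the tissue arrays and 7.32, 6.68, 7.52 and 7.10 on the organoid arrays and fell by 2.58 ± 0.21 (5.98-fold, adjusted p = 1.5e-09). Its relatives Btnl4, Btnl2 and Btnl1 fell by 1.95, 1.37 and 1.23. Il15, a survival factor of these lymphocytes, fell by 1.43.

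Antimicrobial and microbe-induced genes were mixed. Of 29 genes 6 fell (20.7%) and 4 rose (13.8%), against 13.5% and 21.9% of all genes, and 10 fell without tissue array 4. Reg3g, a lectin against Gram-positive bacteria, read 11.65, 9.63, 9.33 and 8.0 on the tissue arrays and 7.90, 6.25, 7.82 and 7.02 on the organoid arrays and fell by 2.41 (adjusted p = 0.0021), or by 1.74 without tissue array 1. Its relative Reg3b differed by -1.45 ± 0.60 (adjusted p = 0.065), and by -0.79 without organoid array 2. It passed the test without organoid array 1 (-1.75, adjusted p = 0.038), organoid array 3 (-1.89, adjusted p = 0.019) or tissue array 4 (-1.73, adjusted p = 0.044). Reg4 read 7.52, 10.02, 10.14 and 9.95 on the tissue arrays and 11.97, 10.89, 11.77 and 10.98 on the organoid arrays and rose by 2.0, or by 1.37 without tissue array 1. Reg1, a secreted protein of regenerating gut, read 7.70, 12.26, 11.69 and 12.01 on the tissue arrays and 12.66, 12.38, 12.88 and 12.74 on the organoid arrays. Its difference of 1.75 (adjusted p = 0.041) lost its call without tissue array 1 (0.67, adjusted p = 0.2) and without any of organoid arrays 1 to 4 (adjusted p of 0.069, 0.057, 0.082 and 0.075). Ccl20, a chemokine of gut epithelium, rose by 2.41. Among 21 genes of pattern receptors and NF-kB 8 fell and 2 rose, with Tnf higher by 0.92 and Nfkbiz lower by 0.76.

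Cholesterol synthesis rose as a pathway. Of 23 genes of sterol and fatty acid synthesis 18 rose and none fell, with a median difference of 1.07. Fdps, which builds farnesyl diphosphate, read 8.14 to 8.40 on the tissue arrays and 9.85 to 10.47 on the organoid arrays, with no overlap, and rose by 1.80 ± 0.25 (3.48-fold, adjusted p = 4e-06). Sqle, the epoxidase that commits squalene to sterols, read 8.27, 7.09, 7.12 and 6.72 on the tissue arrays and 8.66, 9.11, 8.37 and 8.76 on the organoid arrays and rose by 1.42 (adjusted p = 0.00098), with tissue array 1 the closest to the organoids. Cyp51 and Mvd, at later and earlier steps, rose by 1.68 and 1.53, and Insig1, which holds back the sterol sensor Scap, by 1.12. Without tissue arrays 1 and 4, an alternative chosen after the data were seen, 13 rose.

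The promoter of Hmgcs1, which makes HMG-CoA for this pathway, holds 1 match to TCACNCCAC, a form of the site of sterol-regulated factors, in capitals below (250 bases before the start, GRCm38.p6, RefSeq). Hmgcs1 read 8.30, 7.94, 7.81 and 7.35 on the tissue arrays and 8.90, 8.92, 8.38 and 8.73 on the organoid arrays and rose by 0.88 ± 0.24.
Hmgcs1, chr13:119690101-119690350, + strand: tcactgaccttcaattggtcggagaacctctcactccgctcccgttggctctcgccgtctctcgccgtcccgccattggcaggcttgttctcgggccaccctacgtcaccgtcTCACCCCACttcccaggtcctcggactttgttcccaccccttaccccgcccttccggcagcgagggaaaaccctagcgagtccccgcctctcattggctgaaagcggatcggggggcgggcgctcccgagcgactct
On both strands, 1 of 18 list members with a promoter sequence held it (5.56%), against 331 of 27025 promoters (1.22%).

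Amino acid supply and redox genes were also higher in part. Of 21 genes of the Atf4 stress response 10 rose and 1 fell. Asns, which makes asparagine, rose by 1.5, Phgdh, which opens serine synthesis, by 1.29, and the amino acid carrier Slc7a5 by 1.23, while its partner Slc3a2 fell by 1.00. The classic stress markers Ddit3 and Trib3 differed by -0.29 ± 0.22 (adjusted p = 0.36) and -0.09 ± 0.17 (adjusted p = 0.75). Of 16 genes of the unfolded protein response 7 fell and 1 rose, and 4 fell without tissue array 1. Its chaperone Hspa5 differed by 0.04 ± 0.16 (adjusted p = 0.91), and Edem1, which clears misfolded glycoproteins, fell by 1.12.

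Of 21 Nrf2 and glutathione genes 9 rose (42.9%) and 3 fell (14.3%), against 21.9% and 13.5% of all genes. The aldo-keto reductase Akr1b8 read 5.93, 5.93, 6.09 and 5.93 on the tissue arrays and 9.81, 8.42, 8.82 and 8.11 on the organoid arrays and rose by 2.82 ± 0.52 (7.05-fold, adjusted p = 0.00012). The glutathione transferases Gsta4 and Gstm1, the latter with close relatives in its family, rose by 2.48 and 1.44, and Gclc, the limiting enzyme of glutathione synthesis, by 1.44. Against them Srxn1, a Nrf2 target that repairs peroxiredoxins, fell by 1.01. Among 26 xenobiotic genes 10 fell (38.5%) and 5 rose (19.2%), and without tissue array 1, 12 fell and 4 rose. Cyp3a13 and Cyp4f14, cytochromes of the gut, fell by 1.11 and 1.08, Nr1i2, the receptor that senses such compounds, by 0.97, and the glucuronosyltransferase Ugt2b5 read 5.37, 8.08, 6.87 and 7.36 on the tissue arrays and 9.98, 9.12, 10.16 and 9.58 on the organoid arrays.

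Energy genes changed little as groups. Of 22 respiratory chain genes 2 rose and 1 fell, with a median difference of -0.05. Of 20 genes of fatty acid oxidation 6 rose (30%) and 3 fell (15%), against 21.9% and 13.5% of all genes. Acot1, a thioesterase of fatty acyl-CoA, rose by 2.58, and Pdk4, which spares glucose by braking pyruvate dehydrogenase, fell by 1.38. Cpt1a, which admits fatty acids to mitochondria, differed by 0.01 ± 0.11 (adjusted p = 0.95). Of 23 genes of hypoxia and glycolysis 7 rose (30.4%) and 2 fell (8.7%). Slc2a1, a glucose carrier, was higher by 0.98 and Ndrg1 by 1.39, with Ldha, lactate dehydrogenase, at -0.13 ± 0.18 (adjusted p = 0.66).

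Metals and fat-soluble vitamins gave some of the clearest single changes. Mt2, a metallothionein that binds zinc and copper, read 6.68, 6.18, 6.68 and 6.11 on the tissue arrays and 8.88, 9.19, 9.17 and 9.27 on the organoid arrays and rose by 2.71 ± 0.25 (6.56-fold, adjusted p = 8.1e-09). Mt1 rose by 1.29, or by 1.88 without tissue array 1. Slc39a4, which takes up dietary zinc, fell by 1.76. Heph, the ferroxidase of iron export, fell by 1.53, and the iron importer Slc11a2 and exporter Slc40a1 differed by 0.07 ± 0.22 (adjusted p = 0.87) and 0.12 ± 0.31 (adjusted p = 0.82). S100g, the calcium-binding protein that vitamin D induces in proximal gut, read 3.66, 5.22, 4.14 and 5.21 on the tissue arrays and 8.65, 7.74, 8.78 and 7.69 on the organoid arrays and rose by 3.66 ± 0.32 (12.6-fold, adjusted p = 3.3e-09). Other vitamin D targets, Cyp24a1 and Trpv6, differed by 0.07 ± 0.10 (adjusted p = 0.71) and 0.00 ± 0.10 (adjusted p = 1), and the receptor Vdr by -0.10 ± 0.19 (adjusted p = 0.75). Cyp24a1 read 4.51 on organoid array 1 and 4.05 to 4.12 on the other organoid arrays, near their negative control median of 4.07. Little can therefore be read from its lack of change.

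The next lists had few called genes, and their shares are read against 13.5% lower and 21.9% higher over all genes. Of 18 clock genes 4 fell (22.2%) and 2 rose (11.1%). Npas2, a partner in the core clock, fell by 1.21, and its counterpart Clock differed by 0.10 ± 0.12 (adjusted p = 0.59). Of 15 glucocorticoid response genes 2 fell (13.3%) and 1 rose (6.67%), with the kinase Sgk1 lower by 1.32 and the classic target Fkbp5 at -0.09 ± 0.16 (adjusted p = 0.75). Of 17 genes of apoptosis and p53 5 fell (29.4%) and 3 rose (17.6%). Sesn1 and the death receptor Fas fell by 1.41 and 1.14, and Ccng1 rose by 0.92.

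Genes of fetal spheroids and of the injured, regenerating epithelium were raised in part. Of 18 genes 7 rose (38.9%) and 4 fell (22.2%), against 21.9% and 13.5% of all genes. Clu, which marks a revival state after damage, read 6.30, 6.20, 6.38 and 6.25 on the tissue arrays and 9.66, 8.82, 8.95 and 7.50 on the organoid arrays. All organoid arrays lay above the tissue arrays, and it rose by 2.45 ± 0.60 (5.46-fold, adjusted p = 0.0023). Il1rn, the interleukin-1 receptor antagonist, and Anxa3 rose by 2.58 and 2.01. Lower were Il33, an alarm cytokine (-1.56), and Anxa2 (-0.77). The Yap targets Ccn1 and Ccn2 differed by 0.78, a rise, and -0.07 ± 0.12 (adjusted p = 0.72). The mean of this list on the organoid arrays was 7.04, 6.24, 6.57 and 5.71, highest on array 1. On the tissue arrays it was 5.67 to 5.79, so organoid array 4 lay within the tissue range. Without organoid array 1, 5 genes of the list rose, and without organoid array 4, 10 rose.

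Gut-region genes were uneven in both groups. Of 20 genes of proximal or distal identity 7 fell (35%) and 5 rose (25%), against 13.5% and 21.9% of all genes. Mptx2, a mucosal pentraxin, fell by 2.79, Osr2 by 1.58, and Pdx1, a duodenal factor, rose by 0.86. Onecut2 rose by 1.84, or by 0.98 without tissue array 1. Tmigd1, a membrane protein of enterocytes, fell by 2.37 and lost its call without that array (-1.40, adjusted p = 0.07). The hindgut gene Hoxa13 differed by 0.04 ± 0.09 (adjusted p = 0.8). Whether tissue and organoids came from the same stretch of gut is not stated.

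The largest rises after Xist held genes of several kinds. No list of stomach genes was tested, and Cldn18, a claudin known from stomach, was not called. Gkn3, a gastrokine, read 4.10, 4.95, 4.59 and 5.01 on the tissue arrays and 8.53, 7.77, 8.85 and 8.50 on the organoid arrays and rose by 3.75 ± 0.59 (13.5-fold, adjusted p = 1.8e-05). Krt23, a keratin, read 5.11, 5.45, 5.65 and 5.36 on the tissue arrays and 9.52, 8.21, 8.86 and 8.13 on the organoid arrays and rose by 3.29 ± 0.29 (9.76-fold, adjusted p = 5.1e-09). Anxa10, an annexin of gastric mucosa, rose by 3.63, or by 3.04 without organoid array 1 and 4.29 without organoid array 4. Sult1c2, a sulfotransferase, Sycn, a zymogen granule protein, and Cbr3, a carbonyl reductase, rose by 2.86, 2.72 and 2.70. Anxa10, Sult1c2 and Xist lay under the negative control median in tissue, so these rises are lower limits.

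Longer culture added few changes. Between day 3 and day 30 adult organoids 8 genes were called higher (0.026%) and 7 lower (0.0228%) by limma (0.0488% in all), of which 2 each way were at least 2-fold (0.00651% each), with 2583 at an unadjusted p under 0.05, and no member of any list was called. These counts hung on 1 array: without day 30 array 3 they were 114 and 90. Means at day 3, day 30 and in tissue are given side by side, since both organoid groups would be set against the same tissue arrays. Lgr5 stood at 7.78 ± 0.83 on day 3 and 8.69 ± 0.18 on day 30 (SD, n = 4), against 5.16 ± 0.24 in tissue. Lct stood at 7.37 ± 0.71, 7.27 ± 0.77 and 11.71 ± 0.41, and Igtp at 5.01 ± 0.08, 5.04 ± 0.19 and 8.20 ± 0.10. For these the day 30 mean lay nearer day 3 than tissue. Clu stood at 8.73 ± 0.90, 7.06 ± 0.47 and 6.28 ± 0.08, with day 30 between the others, and the day 30 minus day 3 difference of Clu was -1.67 (adjusted p = 0.41).

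Fetal day 3 organoids against P0 intestine share no array with the adult comparison and show which differences recur with younger material, whose stages, E19 and P0, do not match exactly. In that comparison 9379 genes were higher (30.5%) and 4226 lower (13.8%), together 44.3%, with 810 (2.64%) and 993 (3.23%) at least 2-fold. This split depended on scaling more than in adults: 68.9% of called genes were higher as deposited, 54.3% with arrays centred on their median and 2.6% centred on epithelial genes, which lay higher in fetal organoids and moved the median of all genes from 0.14 to -0.58. Of the 1426 genes at least 2-fold higher in adult organoids, 1152 (80.8%) were called higher in fetal organoids and 24 (1.68%) lower. Of the 1008 at least 2-fold lower, 524 (52%) were called lower and 70 (6.94%) higher. Genes past 2-fold in both numbered 322 upward, 22.6% of the adult and 39.8% of the fetal list, and 339 downward, 33.6% and 34.1%.

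Growth and sterol lists rose in both comparisons. Cell cycle genes rose for 30 of 32 in each, nucleotide genes for 19 of 19, ribosome biogenesis for 21 and 23 of 23, and cholesterol synthesis for 18 and 20 of 23. Centred on epithelial genes, the fetal counts were 19, 9, 7 and 13 higher, with 2 cell cycle genes, 1 nucleotide gene and 1 ribosome gene lower. Transporters fell for 17 of 19 in each. Mki67 differed by 1.24 in the adult and 1.54 in the fetal comparison, Fdps by 1.80 and 2.36, and Slc15a1 by -3.19 and -1.49.

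Other groups moved differently between ages, and the difference of the differences (adult minus fetal) was tested gene by gene. It passed the limma test upward for 4177 genes (13.6%) and downward for 3987 (13%), together 26.6%, and at least 2-fold for 957 (3.12%) and 924 (3.01%). Centring moved that split too, to 5420 and 2555 on array medians and to 20811 and 766 on epithelial genes, with the median over all genes then at 0.53. Of 15 goblet genes 10 passed downward, of 12 Paneth genes 9, and none upward. Centred on epithelial genes these counts were 5 and 8, with 1 Paneth gene upward. Zg16 fell by 2.32 in the adult and rose by 2.44 in the fetal comparison, a difference of -4.75 ± 0.50 (adjusted p = 3.6e-07). Lyz1 differed by -0.59 and 3.21 (-3.79 ± 0.46, adjusted p = 2.4e-06). P0 tissue held Lyz1 at 5.78 ± 0.29 against 12.06 ± 0.38 in adult tissue (SD, n = 4), while fetal organoids stood at 8.99 ± 0.89 and adult day 3 organoids at 11.48 ± 0.22. For Lyz1, the means of both tissues lay farther apart than those of the organoids.

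The brush border followed that pattern in 11 of 16 genes, all downward, or in 7 with 1 upward when centred on epithelial genes. Sis fell in neither comparison, with -0.49 in the adult and a rise of 1.69 in the fetal one, and Treh differed by -1.86 and 0.08. Fatty acid oxidation passed upward for 10 of 20 genes and downward for 2, with Acot1 at 2.58 and -0.98.

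Immune lists also differed by age. Of 32 interferon-induced genes 21 passed downward and 2 upward, and of 15 T and NK cell genes 14 passed downward. Centred on epithelial genes, 12 interferon-induced genes passed downward and 4 upward, and 11 T and NK cell genes downward. Igtp differed by -3.18 in the adult and -0.83 in the fetal comparison (-2.35 ± 0.25, adjusted p = 3.7e-07), and Ptprc by -2.69 and -0.59. Adult tissue held Igtp at 8.20 ± 0.10 and P0 tissue at 6.26 ± 0.39. Endothelial and smooth muscle lists went the other way, with 10 of 13 and 7 of 13 genes upward and none downward, or 13 and 11 upward centred on epithelial genes. The fibroblast list had 2 of 18 genes upward (13.6% of all genes did) and none downward, with a median of -0.03, and 9 upward centred on epithelial genes. Acta2 differed by -3.74 in the adult and -4.18 in the fetal comparison. Regenerative genes passed downward for 7 of 18, or for 4 with arrays centred on their median and for 2, with 2 upward, centred on epithelial genes, with Clu at 2.45 and 4.24 and Il1rn at 2.58 and 5.46 (-2.88 ± 0.73, adjusted p = 0.0054).

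**Figure D5:**
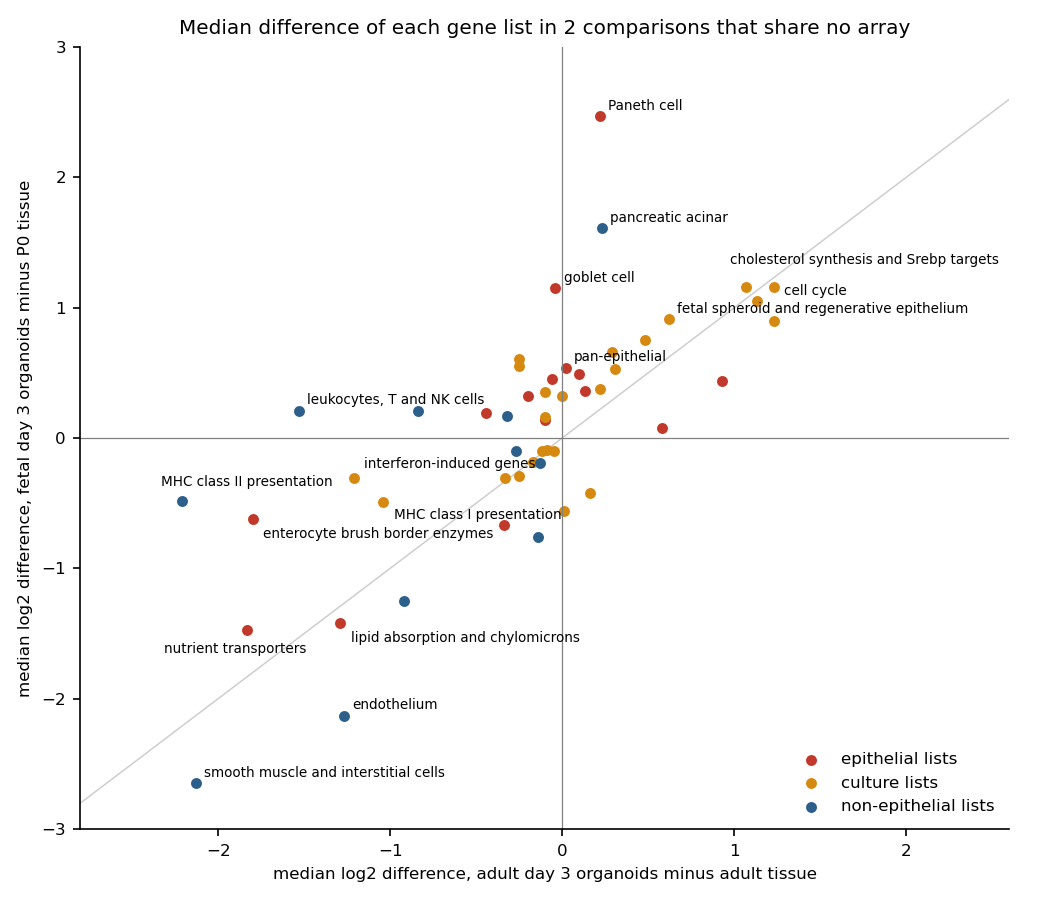
Median log2 difference of each gene list in the adult comparison (horizontal axis) and the fetal comparison (vertical axis), which share no array, coloured by kind of list, with the line of equal values in grey. Growth and cholesterol lists lie near the line at the upper right, smooth muscle, fibroblast and transporter lists at the lower left, and Paneth and goblet lists far above the line.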

How the data were processed

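The authors deposited log2 signals for 24 arrays, made with RMA in Affymetrix Expression Console per the submitters' processing notes. Its version and the genome build were not given in the sources used here. RMA subtracts background and forces all arrays to 1 distribution, so a change in total RNA per cell is not seen. Of 72688 probe sets, 6732 were controls. Of the 65956 others, 31269 named 1 gene in the platform annotation, 1481 several and 33206 none, and 1140 symbols were updated through RefSeq. Of 442 genes with several probe sets, the brightest on average was kept.

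A limma (3.58.1, R 4.3.3) model of 6 group means over 24 arrays gave the contrasts, with a prior of 4.25 degrees of freedom beside 18 residual ones, and p-values were adjusted by Benjamini-Hochberg over 30712 genes. Tables and figures used Python 3.11.15 with numpy 2.4.6, pandas 2.3.3 and matplotlib 3.10.9. The test was checked on simulated data, with 6 false calls among 30512 unchanged genes. Noise there was independent between genes, so deviations shared by a whole array were not covered. Alternatives were the mean of probe sets, a filter on dim genes, other priors, scalings, array weights, a stricter threshold, the replicate number as a block and single arrays left out. The comparison, its gene lists and named genes were chosen with earlier results of these data known. Named genes were a panel of 14, the 15 largest changes each way without overlap, the 15 largest falls above background, up to 6 called list members each way and members against their list, the 10 largest differences between ages each way, and list members given by value. Predicted genes, small RNAs, antibody and T cell receptor segments and joined names were left out of the largest changes, and genes of non-epithelial lists out of the falls above background. Replicates correlated at r 0.992 to 0.995 (organoids) and 0.984 to 0.996 (tissue), and no 2 arrays were copies.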

Additional observations from a re-analysis of the deposited data

Results flagged for a closer look

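Among the genes printed here, arrays far from the other 3 of their group (by Dixon's 95% limit, which chance passes in about 1 of 20 groups) were found in 41 of 490 sets of gene and group tested. No cause of these was tested, and the labels give none. Tissue array 1 was the highest of its group in Axin2 (7.75, the others 7.12 to 7.20), Egfr (7.58, the others 7.06 to 7.10), Fabp6 (9.62, the others 4.55 to 4.80), Gsdmc2 (10.18, the others 7.89 to 8.02) and Mt1 (9.73, the others 7.16 to 7.49). Tissue array 1 was the lowest in Afp (4.61, the others 6.85 to 7.23), Arg2 (8.70, the others 10.06 to 10.21), Fabp1 (11.74, the others 12.55 to 12.69), Gstm1 (8.20, the others 9.53 to 9.76), Lct (11.09, the others 11.86 to 11.96), Onecut2 (4.31, the others 7.52 to 8.01), Reg1 (7.70, the others 11.69 to 12.26), Reg4 (7.52, the others 9.95 to 10.14), Sct (7.60, the others 8.0 to 8.06) and Treh (8.86, the others 10.06 to 10.30).  Tissue array 3 was the highest of its group in Akr1b8 (6.09, the others 5.93 to 5.93) and Bmp5 (6.81, the others 6.36 to 6.43). Tissue array 4 was the highest of its group in Acot1 (5.77, the others 4.99 to 5.02), Ccn1 (6.18, the others 5.66 to 5.70) and Trpm5 (6.24, the others 5.81 to 5.87). Tissue array 4 was the lowest in Bmpr2 (8.30, the others 8.67 to 8.70), Igtp (8.05, the others 8.24 to 8.26), Irf1 (7.57, the others 7.87 to 7.93), Myc (5.94, the others 6.65 to 6.78) and Slc12a2 (7.34, the others 8.05 to 8.17). Organoid array 1 was the highest of its group in Adamdec1 (6.68, the others 3.83 to 4.03), Aspn (4.25, the others 2.38 to 2.58), Bmp4 (5.34, the others 4.63 to 4.69), Bmp5 (4.56, the others 3.62 to 3.72), Cyp24a1 (4.51, the others 4.05 to 4.12), Dcn (8.88, the others 4.08 to 4.73), Dpt (8.38, the others 4.00 to 4.51), Ogn (4.98, the others 2.24 to 2.51), Prss2 (5.30, the others 3.69 to 3.80) and Uty (3.69, the others 3.57 to 3.58). Organoid array 2 was the highest of its group in Acot1 (8.11, the others 7.65 to 7.70). Organoid array 2 was the lowest in Irf9 (6.13, the others 6.25 to 6.27) and Muc2 (9.44, the others 10.15 to 10.24). Organoid array 3 was the highest of its group in Dusp4 (7.45, the others 7.19 to 7.23). Organoid array 3 was the lowest in Ctrb1 (7.92, the others 8.64 to 8.74). Organoid array 4 was the lowest in Id1 (6.17, the others 6.54 to 6.61).

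For 20 genes called in the adult comparison, the difference between organoids and tissue itself differed most between ages (predicted genes, small RNAs and antibody and T cell receptor segments left out), by the limma test of the adult minus fetal difference. Each value is followed by the adult and the fetal difference it comes from. The lower ones were Ly6m (-6.11, from -4.59 and 1.52), Car4 (-5.98, from -4.65 and 1.33), Mptx2 (-5.36, from -2.79 and 2.57), Jchain (-5.21, from -5.20 and 0.01), Reg3g (-5.16, from -2.41 and 2.76), Ada (-4.97, from -3.11 and 1.87), Slc5a8 (-4.96, from -2.99 and 1.97), Fam3b (-4.96, from -2.15 and 2.81), Tmigd1 (-4.91, from -2.37 and 2.53) and Zg16 (-4.75, from -2.32 and 2.44). The higher ones were Ugt2b5 (2.63, from 2.79 and 0.17), Nrn1 (2.72, from 2.27 and -0.45), Aspn (2.76, from -1.86 and -4.62), Afp (2.78, from 2.21 and -0.57), Fam13a (2.92, from 1.5 and -1.42), S100g (3.49, from 3.66 and 0.16), Acot1 (3.57, from 2.58 and -0.98), Ttr (3.78, from 1.81 and -1.97), Xist (3.86, from 6.69 and 2.82) and Fbp1 (6.01, from 1.80 and -4.22). The adjusted p of Xist was 0.049, with an SD of 3.84 over the P0 arrays. Without tissue array 1 the adult difference of Slc5a8, Reg3g and Afp was -2.03, -1.74 and 1.60, and that of Tmigd1 lost its call (-1.40, adjusted p = 0.07 by limma).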

How the results depend on the processing

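Leaving out each array in turn gave 6114 to 6517 genes higher and 3589 to 4191 lower in adult organoids, and 1275 to 1577 and 936 to 1059 at least 2-fold. The other settings kept these counts within 1.5 times. Same-numbered arrays did not deviate together (r from -0.126 to 0.013 for the 4 pairs, -0.168 to 0.258 for others, none of the organoid arrays correlating best with its own number), and with the replicate number as a block 6619 genes were higher and 4066 lower. Genes still above background among the 2-fold falls were 151 over the 95th percentile of the negative controls and 772 over their median. Leaving out tissue arrays 1 and 4 together, an alternative chosen after the data were seen, gave 5699 and 3522. Of 4650 values of single genes under other settings 4546 kept their side of the threshold, 77 lost the call and 27 gained it. Among values called in the main or the other setting, 0 turned sign. Sign changes of genes called in neither were not counted.

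The fetal comparison gave 6000 genes higher with dim genes left out, 6101 centred on array medians, 6198 after a second quantile normalization and 5793 at an adjusted p under 0.01. Centred on epithelial genes it gave 687 higher and 25918 lower (231 and 4327 at least 2-fold). Its ranges with single arrays left out were 7451 to 9221, 3696 to 4141, 752 to 922 and 906 to 1064. The difference between ages gave 2555 genes lower on array medians, 20811 and 766 on epithelial genes (5070 and 442 at least 2-fold) and 2692 and 2030 at an adjusted p under 0.01, with ranges of 3622 to 4104, 3130 to 4330, 844 to 1052 and 865 to 978. The cause was not tested.

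Between day 30 and day 3 the counts higher and lower, then at least 2-fold, were 2, 4, 0 and 1 on array medians, 0, 3, 0 and 1 after a second quantile normalization, with the replicate block and at an adjusted p under 0.01, 0 and 3 with 0 higher at least 2-fold on epithelial genes, 203, 169, 5 and 38 with array weights, and 1, 0, 0 and 0 with these groups alone. A trended prior gave 1 higher at least 2-fold. Leaving out single arrays gave 0 to 114, 3 to 90, 0 to 12 and 1 to 32. Here 4 arrays a group, dim signals and unknown sex and gut region limit what can be read. In data simulated for the adult comparison, the test found 99 of 100 genes shifted by 1 and 57 of 100 shifted by 0.5 on the log2 scale. Far fewer genes were shifted there than were called in the data, so these rates do not carry over directly.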

Other observations

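Pancreatic acinar genes differed between ages. The adult minus fetal difference passed the limma test downward for 9 of 15, where 13% of all genes did, and upward for none. In the adult comparison 1 of 15 was called, Ctrb1, with a median difference of 0.23. In the fetal comparison 13 of 15 rose, where 30.5% of all genes did, with a median of 1.61. The fetal organoid arrays were uneven in this list, with mean signals of 5.74, 6.88, 6.91 and 4.81, against 4.40 to 4.52 in P0 intestine. Prss2, a trypsinogen, differed by 0.40 ± 0.64 (adjusted p = 0.71) in the adult comparison and rose by 3.45 in the fetal one, and its adult signal was highest on organoid array 1. Cldn18, a claudin known from stomach, differed by 0.44 (adjusted p = 0.66) and rose by 4.08.

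Sex-chromosome genes also varied outside the adult comparison. Xist had a mean of 7.24 ± 3.84 in P0 intestine, 10.06 ± 0.28 in fetal day 3 organoids and 11.32 ± 0.27 in adult day 30 organoids (SD, n = 4 arrays each). Uty stood at 5.05 ± 1.75, 4.58 ± 0.25 and 3.59 ± 0.04 in the same groups. The fetal comparison gave Xist a difference of 2.82 (adjusted p = 0.028) and Uty -0.48 (adjusted p = 0.43) by limma.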
